A study of Mus musculus with 9 samples.

Results

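Autophagy delivers cytoplasm to the lysosome for breakdown, and 37 mouse genes that carry out or control this route were followed here after knockdown of Tdp-43 (gene Tardbp), an RNA-binding protein that regulates splicing and is lost from the nucleus in most amyotrophic lateral sclerosis. The genes are a list drawn from textbook knowledge of the pathway, from the kinases that start an autophagosome to the hydrolases of the lysosome. It was chosen with earlier results of these data known. All 37 of 37 could be measured, out of 16770 genes tested on the array.

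The cells were primary cortical neurons of C57BL/6 mouse embryos at embryonic day 15, treated with AraC, which kills dividing cells. On day 5 of culture they received, for 4 h, a lentivirus carrying either a control hairpin, shCont, or a Tdp-43 hairpin, shTdp-43-1 or shTdp-43-2, and they were harvested on day 11 after 6 further days. Every culture, controls included, therefore carried a lentiviral hairpin. RNA from 3 samples of each group was hybridised to exon arrays, 9 arrays in all. The series' design text calls the cells motor neurons, while every sample label calls them cortical, which is followed here. The labels do not say whether the 3 samples of a group were separate cultures, so p-values measure only the spread between these samples.

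An autophagosome forms in steps. The Ulk1 kinase complex starts the process when nutrients are short, and a phosphatidylinositol 3-kinase complex then marks the membrane. A pair of ubiquitin-like conjugation systems couples Atg8-family proteins (LC3 and GABARAP) to its lipid, and the closed vesicle fuses with the lysosome, where acid hydrolases digest the contents. The kinase complex mTORC1 holds this route back, and the transcription factors Tfeb and Tfe3 raise expression of its genes. Neurons depend on it because they cannot dilute damaged proteins by dividing.

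Each gene was given the mean log2 intensity of its probe sets, which are short groups of probes placed along the exons. The 37 genes had 773 such probe sets, between 7 and 61 per gene. Tardbp itself stood at 9.77, 9.94 and 10.06 on the control arrays, at 7.84, 8.23 and 8.55 with shTdp-43-1 and at 8.22, 8.58 and 7.90 with shTdp-43-2. Its arrays did not overlap the controls with either hairpin, and the mean levels were 30.4% and 30.9% of control (limma adjusted p = 0.000349 and 0.000109). Within groups, arrays correlated at 0.985 to 0.994 across genes. All 7 tested pan-neuronal markers lay above the median probe set of the array, but so did all 9 astrocyte and 12 of 14 microglial markers. By this measure the cultures could not be taken as free of glial transcripts. The measure is a loose one, since most probe sets of the array carry no gene symbol. Cd68 and Laptm5, counted as microglial, are also on the list of further lysosomal membrane genes.

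A few genes at separate steps of the route changed. With both hairpins Atg7 and Atg4c, which act in Atg8 conjugation, fell and Atg14, a subunit of the phosphatidylinositol 3-kinase complex, rose. With shTdp-43-1 the lysosomal protease gene Ctsl also fell. With shTdp-43-2 Ulk1, Atg12 and Gabarapl2 rose and Ulk2 fell. The other 29 genes were not called with either hairpin (limma, adjusted p under 0.05 over all genes tested).

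In numbers, 1 of 37 genes rose with shTdp-43-1, where 5.16% of all genes tested did, and 3 fell (8.11%), against 5.96% of all genes. With shTdp-43-2, 4 rose (10.8%, against 7.76% of all genes) and 3 fell (8.11%, against 14.1%). Under both hairpins the calls shared a direction for 1 higher gene (2.70%, against 2.95% of all genes) and 2 lower genes (5.41%, against 3.49%). In either direction 10.8% of the set was called with shTdp-43-1, against 11.1% of all genes, and 18.9% with shTdp-43-2, against 21.9%, so these shares lie near those of the whole array. Both comparisons use the same 3 control arrays. The split between rises and falls depends on the scaling between arrays: with each array centred on its median, rises made up 57.9% in place of 46.4% of all calls over the array with shTdp-43-1, and 55.9% in place of 35.5% with shTdp-43-2. Under that centring 3 of the 37 genes rose with shTdp-43-1 (8.11%, against 7.24% of all genes) and 2 fell (5.41%, against 5.27%), and with shTdp-43-2, 8 rose (21.6%, against 13.0%) and 2 fell (5.41%, against 10.2%).

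With shTdp-43-1 they ran from -0.53 to 0.32 on the log2 scale with a median of -0.05 (0.01 over all genes), and with shTdp-43-2 from -0.80 to 0.61 with a median of -0.01 (-0.01 over all genes). For 35 of 37 genes with shTdp-43-1 and 33 with shTdp-43-2, the 95% interval of the change stayed within 1.5-fold of control (94.6% and 89.2%, against 86.4% and 81.4% of all genes). The median standard error was 0.09.

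**Figure D1:**
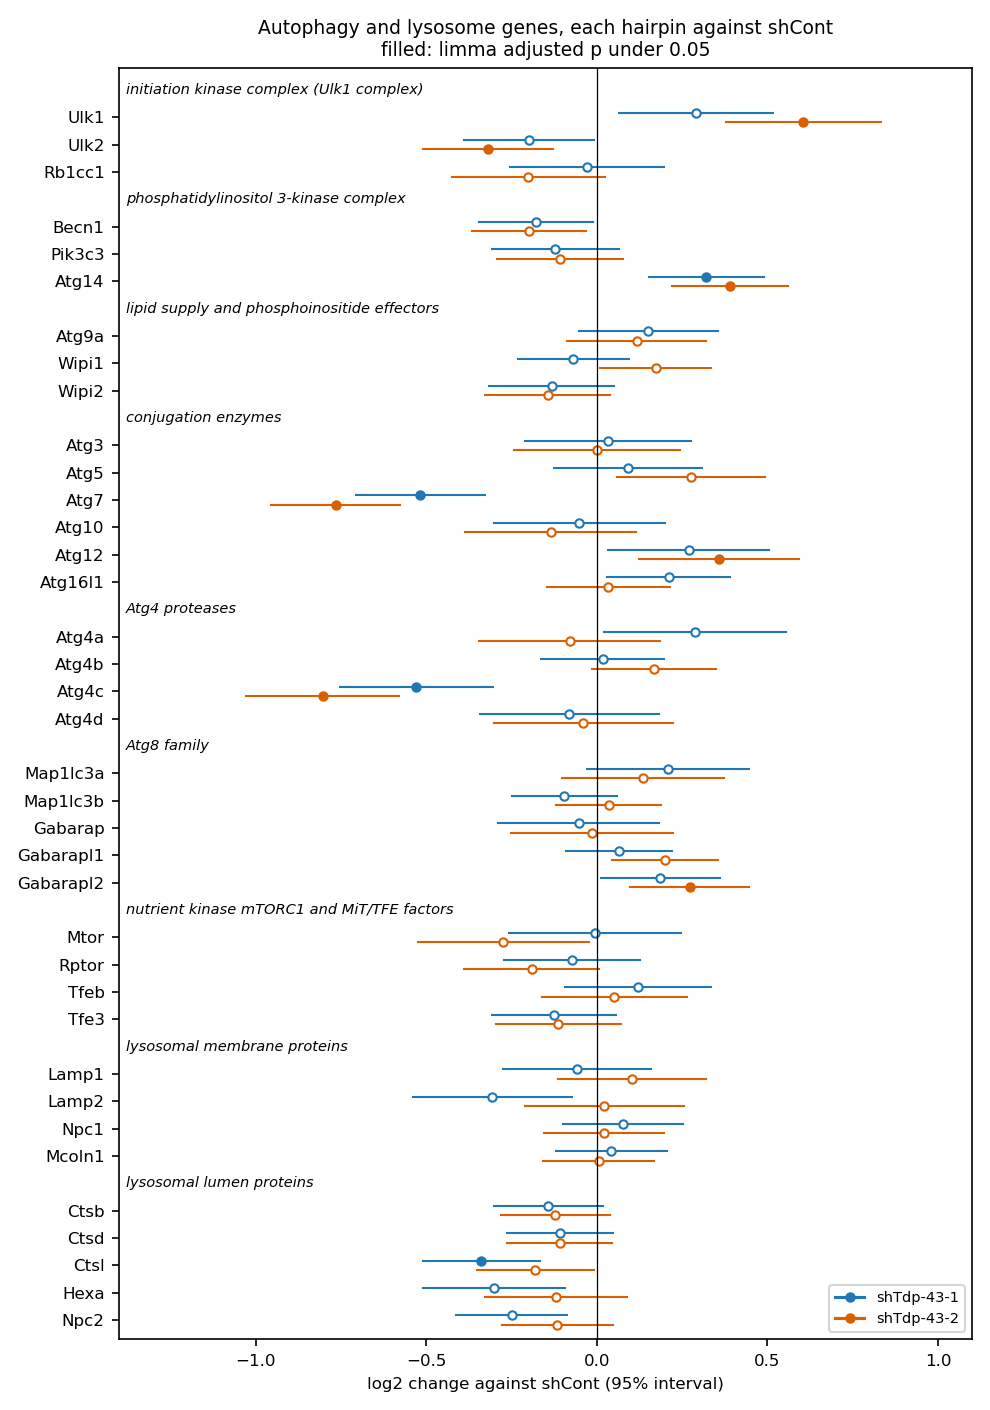
Log2 change of each of the 37 autophagy and lysosome genes against the control hairpin with its 95% interval (horizontal axis), grouped by role and coloured by hairpin; filled points have a limma adjusted p under 0.05. Atg7 and Atg4c stand furthest to the left and Ulk1 with shTdp-43-2 furthest to the right, while 35 and 33 of the 37 intervals stay within 1.5-fold of control.

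Initiation began with opposite values for a pair of related kinases. Ulk1, the kinase that starts autophagosome formation, stood at 10.50, 10.34 and 10.50 in controls, at 10.88, 10.73 and 10.60 with shTdp-43-1 and at 11.23, 11.00 and 10.93 with shTdp-43-2. Every array of either hairpin lay above every control array. The change was 0.61 ± 0.10 (SE, n = 3 against 3) with shTdp-43-2, a 1.52-fold rise (limma adjusted p = 0.0017), and 0.29 ± 0.10 with shTdp-43-1, which was not called (adjusted p = 0.0953). Of the 35 Ulk1 probe sets, 34 were above control with both hairpins. Under centring of the arrays the shTdp-43-1 change was 0.34 and passed (adjusted p = 0.0349).

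Ulk2, its close relative with overlapping function, went the other way. Its values were 11.19, 11.32 and 11.22 in controls, 11.08, 11.01 and 11.03 with shTdp-43-1, and 10.89, 11.07 and 10.80 with shTdp-43-2. All arrays of both hairpins lay below all control arrays. It fell by 0.32 with shTdp-43-2 (SE 0.09, limma adjusted p = 0.0213), while the change of -0.20 with shTdp-43-1 did not pass (adjusted p = 0.164). The shTdp-43-2 call was lost with the median of probe sets (adjusted p = 0.185), under centring (0.0506) and without shCont replicate 2 or shTdp-43-2 replicate 1 or 3 (0.0704 to 0.0864). Rb1cc1, which encodes the scaffold FIP200 of the same complex, changed by -0.03 and -0.20 and was not called with either.

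In the phosphatidylinositol 3-kinase complex, only the subunit Atg14 was called among the 3 genes followed. Atg14 directs the kinase to sites where autophagosomes form. It stood at 8.37, 8.33 and 8.50 in controls, 8.67, 8.75 and 8.75 with shTdp-43-1, and 8.79, 8.82 and 8.76 with shTdp-43-2. The knockdown arrays were all above the controls and close to one another. Atg14 rose by 0.32 ± 0.08 with shTdp-43-1 (1.25-fold, limma adjusted p = 0.0221) and by 0.39 ± 0.08 with shTdp-43-2 (1.31-fold, adjusted p = 0.00394). All 17 of its probe sets were above control with both hairpins.

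The Atg14 call rests in part on how a gene value is formed. With the median of its probe sets in place of the mean, the changes were 0.22 and 0.24 and neither passed (adjusted p = 0.428 and 0.356), and the shTdp-43-1 call was also lost without shCont replicate 1 or 2 or without shTdp-43-1 replicate 2 or 3 (adjusted p between 0.0725 and 0.0938). Its partners were not called. Becn1, the Beclin 1 scaffold, stood at 10.15, 10.03 and 10.06 in controls against 9.87, 9.97 and 9.85 with shTdp-43-1 and 9.92, 9.82 and 9.90 with shTdp-43-2. Both knockdown groups lay below all controls and overlapped each other. Of all genes, 18.1% lay below all controls with shTdp-43-1 and 23.4% with shTdp-43-2. The Becn1 changes of -0.18 and -0.20 missed the threshold (limma adjusted p = 0.158 and 0.0888). Pik3c3, the catalytic subunit Vps34, changed by -0.12 and -0.11.

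The next step supplies membrane and reads the phosphoinositide signal, and none of its 3 genes was called with either hairpin. Atg9a, the membrane protein of the small vesicles that seed the autophagosome, changed by 0.15 and 0.12. Of the phosphoinositide-binding effectors, Wipi2 changed by -0.13 and -0.14 and Wipi1 by -0.07 and 0.17. All 3 shTdp-43-2 arrays of Wipi1 lay above the controls, as they did for 15.3% of all genes.

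Of the 6 conjugation enzyme genes, Atg7 changed most with each hairpin. Atg7 is the E1-like enzyme that activates both Atg12 and the Atg8 proteins, the entry point of both conjugation systems. Its values were 9.36, 9.16 and 9.16 in controls, 8.75, 8.75 and 8.64 with shTdp-43-1, and 8.46, 8.56 and 8.37 with shTdp-43-2. The 3 groups did not overlap, and the shTdp-43-2 arrays were the lowest. Atg7 fell by 0.52 (SE 0.09) with shTdp-43-1, to 69.9% of control, and by 0.77 (SE 0.09) with shTdp-43-2, to 58.8% (limma adjusted p = 0.00378 and 0.000132). Both calls were kept in all 18 other settings.

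Its 22 probe sets did not all fall alike. Of these, 18 were below control with both hairpins, by values from -0.24 to -1.08 with shTdp-43-1 and from -0.39 to -1.24 with shTdp-43-2. A further 3, none of them dim, had mean changes near 0. Probe set 4824347 had a control mean of 10.04 and changes of 0.18 and 0.03. For 5156944 the control mean was 8.0 and the changes were 0.25 and -0.10. For 5459355 the control mean was 9.34 and the changes were 0.13 and 0.01, but its arrays spread widely. They stood at 9.50, 9.30 and 9.21 in controls, 8.98, 9.58 and 9.85 with shTdp-43-1, and 8.99, 9.06 and 10.00 with shTdp-43-2. The last, 5435769, changed by 0.63 and -0.65; its 9-array mean of 6.09 reached the limit for dim probe sets (6.07) only through the shTdp-43-1 arrays, since the other 6 arrays average 5.77. Where these probe sets lie in the gene was not analysed here, since no genome of the array's build was used.

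Atg12, the ubiquitin-like protein that Atg7 activates, had values of 9.55, 9.59 and 9.90 in controls, 9.84, 10.09 and 9.92 with shTdp-43-1, and 9.96, 10.11 and 10.04 with shTdp-43-2. The highest control array overlapped the shTdp-43-1 arrays but lay below all shTdp-43-2 arrays. It rose by 0.36 ± 0.11 with shTdp-43-2 (1.28-fold, limma adjusted p = 0.0338) and changed by 0.27 ± 0.11 with shTdp-43-1 (adjusted p = 0.132). The shTdp-43-2 call was lost without any one of 5 arrays, namely shCont replicate 1 or 2 or any shTdp-43-2 array (adjusted p between 0.0503 and 0.134), and with a minimum of 1 probe set per gene (0.0591). The E2-like enzymes Atg3 and Atg10 changed by 0.03 and 0.00, and by -0.05 and -0.13. Atg5, which Atg12 is joined to, changed by 0.09 and 0.28, and Atg16l1, which places that conjugate on the membrane, by 0.21 and 0.03, with no call for either gene.

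Among the 4 Atg4 proteases, which cut Atg8 proteins before conjugation and release them afterwards, Atg4c alone was called. It stood at 9.18, 9.03 and 9.13 in controls, 8.75, 8.49 and 8.52 with shTdp-43-1, and 8.33, 8.46 and 8.14 with shTdp-43-2. No array of one group overlapped those of another. Atg4c fell by 0.53 (SE 0.10) to 69.3% of control and by 0.80 (SE 0.10) to 57.3% (limma adjusted p = 0.00847 and 0.000277). All 17 of its probe sets were below control with both hairpins, and both calls were kept in all 18 other settings.

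The other Atg4 genes had smaller or opposite values. Atg4b, the protease with the broadest activity on Atg8 proteins, changed by 0.02 and 0.17, and Atg4d by -0.08 and -0.04. Atg4a changed by 0.29 with shTdp-43-1 (adjusted p = 0.154) and by -0.08 with shTdp-43-2. The gene values of Atg4a overlapped with the controls in both comparisons.

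The Atg8 family, whose lipid-bound forms coat the autophagosome and hold cargo receptors, had 1 called gene of 5. Gabarapl2, also known as GATE-16, stood at 11.98, 12.09 and 12.03 in controls, 12.29, 12.22 and 12.15 with shTdp-43-1, and 12.24, 12.40 and 12.27 with shTdp-43-2. Every knockdown array lay above every control array. It rose by 0.27 ± 0.08 with shTdp-43-2 (1.21-fold, limma adjusted p = 0.0301), and the change of 0.19 ± 0.08 with shTdp-43-1 did not pass (adjusted p = 0.159). All 14 of its probe sets were above control with both hairpins, but leaving out any one control array ended the call (adjusted p between 0.0529 and 0.109), as did leaving out shTdp-43-2 replicate 2 (0.0902) or taking the median of probe sets (0.364).

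The LC3 genes that are most often used as autophagosome markers were not called. Map1lc3a changed by 0.21 and 0.14, and Map1lc3b by -0.09 and 0.03. Gabarapl1 changed by 0.07 and 0.20 (adjusted p = 0.0671 with shTdp-43-2), and Gabarap by -0.05 and -0.01. These arrays measure transcripts and carry no information on lipid-bound LC3 protein or on flux.

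**Figure D2:**
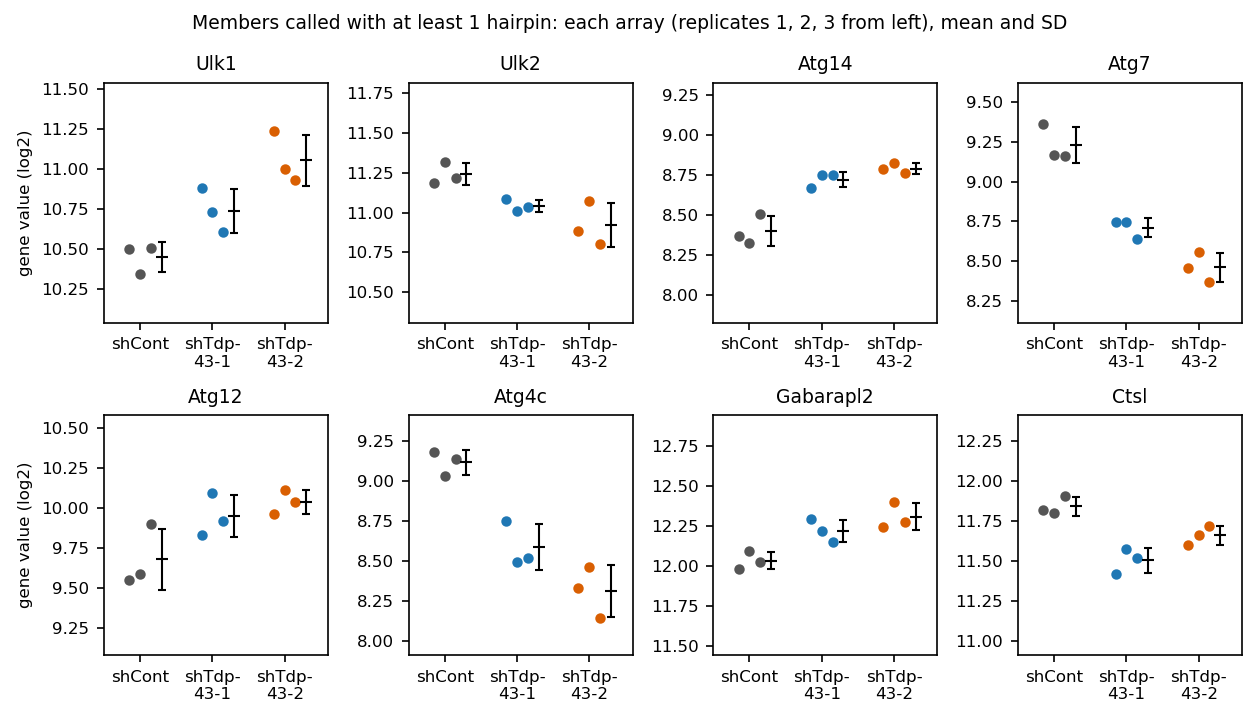
Gene value (log2, vertical axis, each panel over the same width of scale) on each of the 9 arrays for the 8 autophagy and lysosome genes called with at least 1 hairpin, with mean and SD (n = 3) per group. Only Atg12 with shTdp-43-1 overlaps the control arrays; Ulk1, Atg14, Atg7, Atg4c and Ctsl separate all 3 groups.

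None of the 4 nutrient-sensing and transcription factor genes was called. Mtor, the kinase of mTORC1, changed by -0.00 with shTdp-43-1 (95% interval -0.26 to 0.25) and by -0.27 with shTdp-43-2 (-0.52 to -0.02, limma adjusted p = 0.116). Rptor, the raptor subunit that recruits substrates of mTORC1, changed by -0.07 and -0.19. Both genes lay below all control arrays with shTdp-43-2, as did 23.4% of all genes. Under centring of the arrays, the listed genes lying there went from 9 to 3. Of 61 Mtor probe sets, 58 were below control with shTdp-43-2, but probe sets of a gene share the same arrays.

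Tfeb, the best-known regulator of lysosomal gene transcription, had values of 8.18, 8.10 and 8.07 in controls, 8.14, 8.43 and 8.14 with shTdp-43-1, and 8.07, 8.15 and 8.28 with shTdp-43-2. The groups overlapped throughout. Its change was 0.12 (95% interval -0.09 to 0.33) and 0.05 (-0.16 to 0.26). Tfe3, the related factor, changed by -0.12 and -0.11 (adjusted p = 0.348 and 0.382). Their transcript levels say nothing of where the proteins are in the cell, which is how both are mainly controlled.

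Tfeb and Tfe3 bind the letters CACGTG, which read the same on both strands, so the promoters were searched for them. In RefSeq promoters (GRCm38.p6, 250 bases before to 50 after the start), CACGTG was present in 8 of the 29 listed genes with an entry (27.6%) and in 2187 of 27025 genes overall (8.09%). The longer TCACGTGA, which contains it, was present in 3 of 29 (10.3%) and in 304 of 27025 (1.12%). Among genes called with at least 1 hairpin, 3 of 7 with an entry held CACGTG (Atg14, Atg7 and Ctsl), and among those not called 5 of 22 (Atg3, Atg5, Ctsd, Lamp1 and Mcoln1). The longer TCACGTGA went the other way, with 0 of 7 called genes and 3 of 22 not called (Atg3, Ctsd and Mcoln1). No entry was listed for Npc1, Atg16l1, Map1lc3a, Pik3c3, Ctsb, Atg12, Rb1cc1 or Becn1. A match describes the letters and is no evidence of binding.

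The upstream stretches below show both sides of that comparison: Atg7 and Ctsl, which fell with at least 1 hairpin, beside Lamp1, Mcoln1 and Ctsd, which were not called. CACGTG is in capitals, and each is written 5′ to 3′ on the strand of its gene. They lie at chr6:114670924-114671009 (plus strand, Atg7), chr13:64370711-64370770 (minus, Ctsl), chr8:13159060-13159160 (plus, Lamp1), chr8:3500408-3500518 (plus, Mcoln1) and chr7:142387880-142387965 (minus, Ctsd) of GRCm38.p6.
Atg7: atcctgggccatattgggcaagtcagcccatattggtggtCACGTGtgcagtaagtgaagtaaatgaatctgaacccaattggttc
Ctsl: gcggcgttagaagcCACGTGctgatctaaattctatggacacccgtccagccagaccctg
Lamp1: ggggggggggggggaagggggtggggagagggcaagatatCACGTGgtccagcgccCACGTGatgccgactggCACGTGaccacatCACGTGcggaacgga
Mcoln1: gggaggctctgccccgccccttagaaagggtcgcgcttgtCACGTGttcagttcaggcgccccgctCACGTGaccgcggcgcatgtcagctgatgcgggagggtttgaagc
Ctsd: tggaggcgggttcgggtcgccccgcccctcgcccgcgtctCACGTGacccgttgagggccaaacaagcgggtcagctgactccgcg
Counted over the whole searched promoter, Lamp1 held 4 copies, Mcoln1, Ctsd and Atg3 2 each, and Atg7, Ctsl, Atg5 and Atg14 1 each. The stretch printed for Ctsd shows only 1 of its 2 copies. Genes with 1 copy include Atg14, which rose, Atg7 and Ctsl, which fell, and Atg5, which was not called.

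At the lysosomal membrane none of 4 genes was called. Lamp1 and Lamp2 encode the abundant glycoproteins that line the membrane. Lamp1 stood at 11.30, 11.39 and 11.61 in controls, 11.31, 11.38 and 11.44 with shTdp-43-1, and 11.40, 11.64 and 11.56 with shTdp-43-2, with all groups overlapping. Lamp2 stood at 11.07, 11.29 and 11.45 in controls, 10.85, 11.02 and 11.03 with shTdp-43-1, and 11.18, 11.40 and 11.30 with shTdp-43-2. Its shTdp-43-1 arrays lay below the controls, as did those of 18.1% of all genes, with a change of -0.31 (limma adjusted p = 0.0886). Its shTdp-43-2 arrays overlapped the controls, with a change of 0.02. Npc1, which exports cholesterol from the lysosome, changed by 0.08 and 0.02, and Mcoln1, the calcium channel TRPML1, by 0.04 and 0.01.

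Of the 5 genes for lumen proteins, 1 fell with shTdp-43-1 and none was called with shTdp-43-2 (limma; 1 at an unadjusted p under 0.05). Ctsl, the cysteine protease cathepsin L, stood at 11.82, 11.80 and 11.91 in controls, 11.42, 11.58 and 11.52 with shTdp-43-1, and 11.60, 11.66 and 11.72 with shTdp-43-2. The knockdown arrays were all below the controls, and the shTdp-43-1 arrays were the lowest. Ctsl fell by 0.34 (SE 0.08) with shTdp-43-1, to 79.1% of control (limma adjusted p = 0.0191), and the change of -0.18 with shTdp-43-2 was not called (adjusted p = 0.129). The call was lost without any one control array and without shTdp-43-1 replicate 1 or 3 (adjusted p between 0.0513 and 0.0688), under centring (0.0563) and with the median of probe sets (0.273). With that median the shTdp-43-2 change turned to 0.0084.

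The other 4 lumen genes were not called. Hexa, a subunit of the hexosaminidase that degrades GM2 ganglioside, changed by -0.30 and -0.12 (limma adjusted p = 0.0646 and 0.414), and Npc2, which hands cholesterol to Npc1, by -0.25 and -0.12 (adjusted p = 0.0528 and 0.309). The proteases Ctsb and Ctsd changed by -0.14 and -0.12 and by -0.11 and -0.11. All 3 shTdp-43-1 arrays lay below all controls for each of the 5 lumen genes, and all 3 shTdp-43-2 arrays did for Ctsd, Ctsl and Npc2. The shTdp-43-2 arrays of Ctsb and Hexa overlapped the controls. Of all genes, 18.1% had every shTdp-43-1 array below all controls, and 23.4% had every shTdp-43-2 array there. This separation depended on the scaling. Over the whole set it held for 13 genes with shTdp-43-1 and 9 with shTdp-43-2, but under centring for 9 and 3. How many of those left under centring were lumen genes was not counted. Every change of the 5 genes was below 0 under centring and under quantile scaling too, though with shTdp-43-2 the largest under centring was -0.10. With a trended, robust prior in the test, Hexa, Npc2 and Lamp2 were also called with shTdp-43-1.

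Counted over the whole set, all 3 shTdp-43-1 arrays lay below all controls for 13 of 37 genes (35.1%, against 18.1% of all genes) and above them for 5 (13.5%, against 16.9%). With shTdp-43-2 this was 9 below (24.3%, against 23.4%) and 8 above (21.6%, against 15.3%). Under centring of the arrays the counts became 9 below and 6 above with shTdp-43-1, where 14.2% of all genes lay below and 20.9% above. With shTdp-43-2 they became 3 below and 12 above, where 16.8% lay below and 24.8% above. Centring thus turned the balance over the whole array with both hairpins. In the set it turned only with shTdp-43-2, and with shTdp-43-1 more genes still lay below than above. Under quantile scaling, 10 lay below and 6 above with shTdp-43-1 (17.2% and 16.1% of all genes). With shTdp-43-2, 7 lay below and 10 above under that scaling (20.8% and 19.4% of all genes).

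Lysosomal genes are expressed in glia and fibroblasts as well as neurons, and in bulk RNA fewer cells of a type and less RNA per cell cannot be told apart. No microglial marker of 14 was called with either hairpin (limma, with 0 at an unadjusted p under 0.05), and their summed linear level was 2759 to 3071 in controls, 2389 to 3378 with shTdp-43-1 and 2241 to 3303 with shTdp-43-2. P2ry12 and Ptprc lay below the median probe set. Astrocyte markers fell in 1 of 9 with shTdp-43-1 and 3 of 9 with shTdp-43-2, with sums of 15161 to 18622, 15048 to 16246 and 13705 to 14805. Fibroblast and pericyte markers fell in 2 of 7 and 4 of 7, with sums of 4034 to 4084, 3296 to 3328 and 2533 to 2772, and of these Lum lay below the median probe set. By the same test 5.96% and 14.1% of all genes fell. Pan-neuronal markers fell in 1 of 7 and 2 of 7, with sums of 24476 to 26508, 23295 to 25240 and 23581 to 25875. Of 7 excitatory markers 1 rose and 1 fell with shTdp-43-1 and 1 fell with shTdp-43-2, and their sums were 11134 to 11984, 10336 to 12136 and 9683 to 10751. Of 8 inhibitory markers 2 rose and 1 fell with shTdp-43-1 and 1 rose and 3 fell with shTdp-43-2, with sums of 9926 to 11360, 9904 to 11573 and 9207 to 9269. The shTdp-43-2 sums of the excitatory and inhibitory lists lay below all controls, and so did those of the astrocyte list. Sums of the fibroblast and pericyte list lay below all controls with both hairpins. Of all genes, 23.4% had every shTdp-43-2 array below all controls. The part of these cell types in the values of the lysosomal genes was not tested.

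Tdp-43 controls splicing, so each probe set was also compared with the rest of its gene (limma diffSplice, here called usage). Of the 773 probe sets of the 37 genes, 5 were called for usage with shTdp-43-1 (0.647%, against 0.494% of all probe sets tested; 1 of them is the dim Atg7 probe set 5435769) and 8 with shTdp-43-2 (1.03%, against 1.24%). Only 1 changed in the same direction with both hairpins (0.129%, against 0.189%). It was probe set 5433222 of Ctsl.

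That probe set stood at 8.55, 8.85 and 8.84 in controls, at 6.89, 7.68 and 7.96 with shTdp-43-1 and at 6.40, 7.61 and 7.14 with shTdp-43-2. Both knockdown groups lay below the controls and spread more widely than them. Relative to the rest of Ctsl it changed by -0.98 and -1.64 (diffSplice adjusted p = 0.000604 and 1.72e-10). The other 12 Ctsl probe sets changed by -0.07 to -0.44 with shTdp-43-1 and by -0.20 to 0.06 with shTdp-43-2. Without probe set 5433222 the gene value of Ctsl changed by -0.26 with shTdp-43-1 in place of -0.34 and was still called (limma adjusted p = 0.0457), while with shTdp-43-2 it changed by -0.05 in place of -0.18 (adjusted p = 0.651).

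diffSplice pools the spread over all probe sets of a gene. When each probe set was tested with its own spread, an alternative added after seeing the data, Ctsl 5433222 was not called (adjusted p = 0.478 and 0.112). By that test limma called 0 of 773 probe sets with shTdp-43-1 (46 at an unadjusted p under 0.05) and 1 with shTdp-43-2 (52 unadjusted), probe set 4713424 of Atg4a. That probe set stood at 8.52, 8.12 and 8.84 in controls and at 7.42, 7.53 and 7.27 with shTdp-43-2, a usage change of -1.11 (adjusted p = 0.0398 with its own spread, 0.00187 by diffSplice). With shTdp-43-1 it stood at 7.98, 8.35 and 8.0, a usage change of -0.74 that did not pass (diffSplice adjusted p = 0.168).

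Calls with a single hairpin fell in 8 genes. With shTdp-43-1 they were in Atg10, Atg7 (5156944 and 5435769) and Becn1, and with shTdp-43-2 in Atg4a, Atg4b, Atg7 (4824347 and 5459355), Npc2, Rb1cc1 and Ulk2. Since 5435769 was kept only because of its shTdp-43-1 values, its call is no evidence of a difference. The 4 called Atg7 probe sets are those outside the 18 that were below control with both hairpins. Apart from 5435769 their usage changed alike with shTdp-43-1 and shTdp-43-2, and none of them was called between the hairpins. The changes were 0.80 and 0.70 for 5156944 (diffSplice adjusted p = 0.0288 and 0.0525) and 0.73 and 0.83 for 4824347 (0.0665 and 0.00935). For 5459355 they were 0.68 and 0.81 (0.107 and 0.0118). With the replicate block each of them was called with both hairpins, and under centring 4824347 and 5156944 were. In the main fit and with looser dim filters none of them was, and with single arrays left out this varied. Tested with its own spread, none passed with either hairpin (limma adjusted p between 0.178 and 0.69). The Rb1cc1 probe set 4979970 stood at 9.0, 9.16 and 9.01 in controls and at 7.57, 8.04 and 7.27 with shTdp-43-2, the furthest below its gene of these (usage change -1.26, diffSplice adjusted p = 3.3e-05, and 0.0622 with its own spread).

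**Figure D3:**
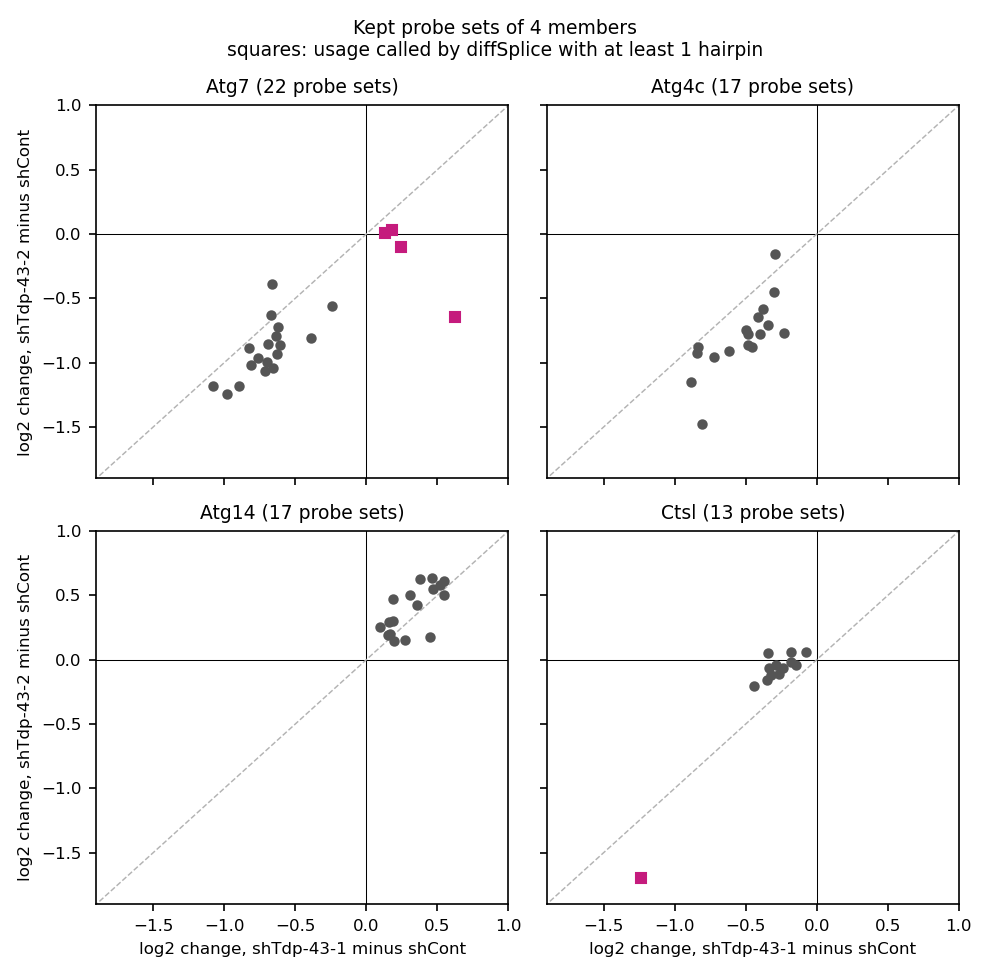
Each point is 1 probe set of Atg7, Atg4c, Atg14 or Ctsl, with its log2 change with shTdp-43-1 (horizontal axis) and with shTdp-43-2 (vertical axis) against the shared control arrays; squares have a diffSplice usage call with at least 1 hairpin, and the dashed line marks equal change. The 17 probe sets of Atg4c and the 17 of Atg14 lie on one side of 0, 4 Atg7 probe sets stand apart from 18 below 0 on both axes, and 1 Ctsl probe set lies far below the other 12.

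The hairpins were then set against each other directly. No gene of the 37 was called between shTdp-43-2 and shTdp-43-1 (limma; 7 at an unadjusted p under 0.05, 18.9%, against 25.4% of all genes), where 11.5% of all genes were called. Atg7 and Atg4c were lower with shTdp-43-2 by 0.25 and 0.27, but these differences did not pass (adjusted p = 0.0902 and 0.114; 95% intervals -0.44 to -0.06 and -0.50 to -0.05). For Atg14 the difference was 0.07 (-0.10 to 0.24). The values of Ulk1, Wipi1 and Lamp2 differed by 0.31, 0.24 and 0.33, which did not pass (adjusted p = 0.0736, 0.057 and 0.0698). Atg4a differed by -0.37 (adjusted p = 0.0751). Alternative settings called between 0 and 3 genes here, from Ulk1, Lamp2, Atg4a and Wipi1. For probe set usage, 3 of 773 were called between the hairpins (0.388%, against 0.44% of all), 1 of them again 5435769.

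To place the 37 genes in the wider pathway, 159 further genes on 8 lists were tested out of 170. With shTdp-43-1, 11 rose and 8 fell (6.92% and 5.03%), and with shTdp-43-2, 19 rose and 28 fell (11.9% and 17.6%); in all genes tested the shares were 5.16%, 5.96%, 7.76% and 14.1%. With both hairpins 8 rose (5.03%, against 2.95% of all genes) and 5 fell (3.14%, against 3.49%). The median changes were -0.02 and -0.00. The counts with both hairpins were 5 and 2 without shCont replicate 1, 3 and 4 without shCont replicate 2, and 4 and 3 with the median of probe sets.

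By list, the calls with both hairpins were spread as follows. Of 39 further hydrolases and activators, 1 rose and 3 fell with both, and of 22 cargo receptors and maturation factors, 2 fell. Of 24 further membrane proteins 3 rose, as did 2 of 17 subunits of the proton pump V-ATPase. Mannose 6-phosphate delivery is the route that carries new hydrolases to the lysosome. On a list of its genes and of sorting adaptors, 2 of 11 rose. None of 16 further initiation genes, 28 genes of mTORC1 and its inputs or 2 relatives of Tfeb moved with both. With shTdp-43-2, where 14.1% of all genes fell and 7.76% rose, 10 of the 39 hydrolases fell and 3 rose, 6 of the 28 mTORC1 genes fell and 2 rose, and 5 of the 22 cargo and maturation genes fell and 4 rose. In the same comparison 3 of the 24 membrane genes fell and 6 rose, and 2 of the 17 V-ATPase genes fell and 2 rose. There 2 of the 16 initiation genes fell, and 2 of the 11 delivery and adaptor genes rose. With shTdp-43-1, where 5.96% of all genes fell and 5.16% rose, no list had more than the 4 falls of the hydrolases or the 3 rises of the membrane genes.

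Among the membrane proteins, Scarb2, the carrier that brings glucocerebrosidase to the lysosome, rose most. It stood at 9.83, 10.16 and 10.55 in controls, 11.11, 11.08 and 11.23 with shTdp-43-1, and 11.10, 11.14 and 11.06 with shTdp-43-2. The controls were spread widely, and all lay below the knockdown arrays. It rose by 0.96 ± 0.14 and 0.92 ± 0.14 (limma adjusted p = 0.00206 and 0.000926). Lamp5, a LAMP relative found in neurons, rose by 0.49 and 0.55, and Clcn6, a chloride and proton exchanger, by 0.33 and 0.46.

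Glb1, the β-galactosidase of ganglioside breakdown, fell furthest with shTdp-43-2 among the hydrolases called with both hairpins. Its values were 9.84, 9.75 and 9.72 in controls, 9.18, 9.24 and 9.20 with shTdp-43-1, and 8.70, 8.82 and 8.74 with shTdp-43-2. The 3 groups were apart, and it fell by 0.57 and 1.02 (limma adjusted p = 0.00106 and 1.17e-05). Here the difference between the hairpins, -0.45 ± 0.07, did pass (adjusted p = 0.00281). Galc, which degrades galactosylceramide, fell by 0.60 and 0.78, and Pla2g15, a lysosomal phospholipase, by 0.64 and 0.38.

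Grn, the gene of progranulin, a lysosomal protein whose loss causes frontotemporal dementia, stood at 10.85, 10.65 and 10.87 in controls, 11.35, 11.19 and 10.99 with shTdp-43-1, and 11.44, 11.30 and 11.31 with shTdp-43-2. All knockdown arrays lay above the controls. It rose by 0.39 and 0.56 (limma adjusted p = 0.0339 and 0.00267), with both calls kept in 11 of 18 other settings. Fundc1, a receptor for the removal of mitochondria, fell by 0.48 and 0.61, and Tecpr1, which links autophagosomes to lysosomes, by 0.39 and 0.55, with both Tecpr1 calls kept in 10 of 18 other settings.

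The V-ATPase subunit genes Atp6v1f and Atp6v0a1 rose by 0.43 and 0.54 and by 0.27 and 0.29. On the list of mannose 6-phosphate delivery and sorting adaptors, Gnptab, which makes the mannose 6-phosphate tag, rose by 0.36 and 0.52. The other called gene, Ap3d1, a subunit of the AP-3 sorting adaptor and not of the tag's route, rose by 0.46 and 0.56. Both calls of Scarb2, Galc, Glb1, Atp6v1f and Ap3d1 were kept in all 18 other settings, and those of Atp6v0a1 in 6.

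**Figure D4:**
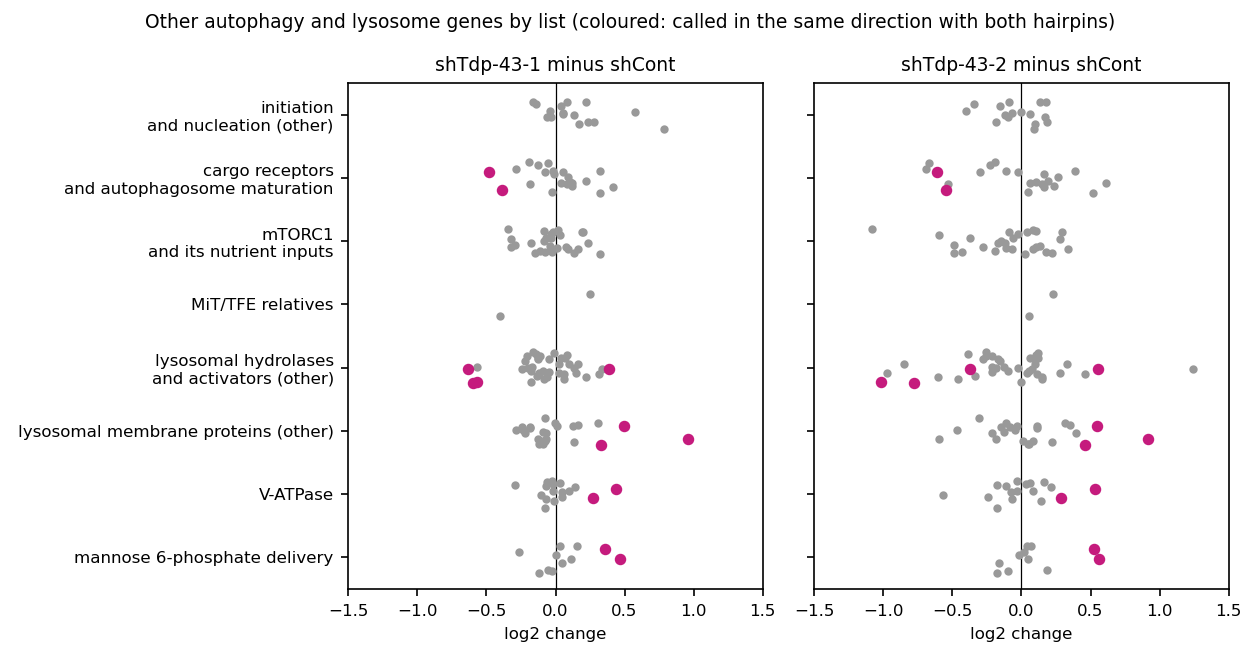
Log2 change of 159 further autophagy and lysosome genes, 1 point each, by list (vertical axis) with shTdp-43-1 (left) and shTdp-43-2 (right) against the shared control arrays; coloured points have calls of one direction under both hairpins. The 8 coloured points to the right lie in hydrolases and activators (Grn), membrane proteins, V-ATPase and mannose 6-phosphate delivery, and the 5 to the left in hydrolases and cargo receptors.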

How the data were processed

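RNA from 9 samples (3 groups of 3) was measured on Affymetrix mouse exon arrays, starting from 100 ng each, per the labels' protocols. The deposited table holds log2 values for 1256831 probe sets, which the authors made with RMA (Affymetrix Expression Console, all exons), per the labels; the submitters' processing notes name build mm9. No program version is given in the sources used here. No scanner files were analysed, so background correction could not be varied; the number of arrays limits the precision, and levels are not compared between probe sets or genes.

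The platform annotation gave 1 symbol to 318760 probe sets, several to 6684 and none to 931387; symbols were updated through RefSeq. A gene value is the mean of its named probe sets whose 9-array mean reached the table median (6.07), for genes with at least 3. All 9 arrays entered 1 model (limma 3.58.1, R 4.3.3: lmFit and eBayes; diffSplice for usage), with Benjamini-Hochberg adjustment over all genes or probe sets and a threshold of 0.05. The scripts were tested on simulated data. A usage test with each probe set's own spread was added after seeing the data.

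The genes and lists were chosen with earlier results of these data known. Members called with at least 1 hairpin are given on every array; further pathway genes are named where called with both hairpins, at most 4 per list and direction by the smaller change. Alternatives varied the dim filter, probe set minimum, summary, scaling, prior, samples in the fit, replicate block and each array left out. No per-sample column was left unused.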

Additional observations from a re-analysis of the deposited data

Results flagged for a closer look

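Usage of 3 probe sets differed between the hairpins in the diffSplice test of that difference. Probe set 5435769 of Atg7 differed by -1.08 (shTdp-43-2 minus shTdp-43-1, adjusted p = 0.000517), probe set 5057780 of Atg4b by -0.98 (adjusted p = 0.00279) and probe set 4875635 of Npc2 by -0.63 (adjusted p = 0.0489). With each probe set's own spread none of these passed (adjusted p = 0.481, 0.503 and 0.385). The Atg7 probe set stood at 7.48, 5.91 and 6.78 with shTdp-43-1, against 5.30, 5.50 and 5.55 with shTdp-43-2. It reached the limit for dim probe sets only through its shTdp-43-1 arrays (mean 6.09 over 9 arrays, 5.77 over the other 6), so its difference is given as a value and not as evidence.

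Glb1, named among the further hydrolases, fell with both hairpins and differed between them by -0.45 (shTdp-43-2 minus shTdp-43-1, limma adjusted p = 0.00281).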

How the results depend on the processing

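Atg7 and Atg4c kept their calls and direction with both hairpins in all 18 other settings, as did Ulk1 with shTdp-43-2. The Ulk2, Atg12 and Gabarapl2 calls with shTdp-43-2 were kept in 13, 12 and 13 settings, the Atg14 calls in 13 and 17, and the Ctsl call with shTdp-43-1 in 12 of 19. The change of Ctsl with shTdp-43-2 turned to 0.0084 with the median of probe sets (limma adjusted p = 0.978). Counts of genes called were as follows. With shTdp-43-1 the count of 4 was 7 with a trended, robust prior, 5 with the replicate block, and 2 to 5 with single arrays left out, at 2 without shCont replicate 1 or 2 or shTdp-43-1 replicate 3. With shTdp-43-2 the count of 7 was 11 under quantile scaling, 7 with the block, and 4 to 7 with single arrays left out, at 4 without shCont replicate 2. With both hairpins it was 3 in the main fit and with the block, and 2 to 4 otherwise. Between the hairpins the count of 0 was 1 without the dim filter or with the median of probe sets, 2 under centring, quantile scaling or the trended prior, 3 with the block, and 0 to 2 with single arrays left out. Usage calls with both hairpins were 3 under centring, 4 with the block and 0 with each probe set's own spread (chosen after seeing the data), and 1 to 3 with single arrays left out; without shTdp-43-1 replicate 1 the 3 were Atg7 probe sets and Ctsl 5433222 was not called. Same-numbered arrays deviated together in some pairs and not in others. Correlations were 0.34 to 0.59 for replicate 1, -0.38 to 0.04 for replicate 2 and 0.13 to 0.32 for replicate 3. The main fit did not take the numbers as pairs, and the counts with the replicate block are those given above. Whether arrays of one number share a batch was not tested. The cause of the gene and probe set changes was not tested either.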
